A study of Mus musculus with 24 samples.

Results

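Loss of SpiB on top of loss of PU.1 was examined in B cells stimulated with LPS + IL-4, by comparing PU.1 SpiB double knockout (DKO) cells with PU.1 conditional knockout (cKO) cells. The comparison rested on 4 of the 24 RNA-seq libraries of the series, 2 per genotype. A gene was included when it reached 0.5 CPM (counts scaled to library size, per 1e6) in 2 or more of the 8 libraries of this culture, which left 12445 of 27179 genes. Lymph node B cells of C57BL/6 mice aged 6 to 20 weeks were purified by negative selection, cultured for 48 h with LPS and IL-4, and then sorted for B220 in the absence of CD3 and CD138. PU.1 cKO mice were Spi1fl/fl Cd23T/+ and DKO mice were Spi1fl/fl Cd23T/+ Spib-/-, so that both groups carried the floxed Spi1 allele and the Cd23-Cre transgene and only the DKO carried the Spib null allele. The PU.1 cKO libraries also stood apart from the 6 others of the culture at genes of the major histocompatibility complex, with H2-Ea-ps, a pseudogene silent in C57BL/6 mice, at 1463 and 1143 CPM, and a further genetic difference between the groups was not tested. Cre was driven by Cd23 (Fcer2a) regulatory sequences, which become active in transitional B cells, whereas the Spib null allele was present from the germline on. The control (Cd23T/+) and SpiB KO (Spi1fl/fl Cd23+/+ Spib-/-) groups of the same culture, the latter without Cre, entered the fit as 2 libraries each. The libraries of a genotype are given as 2 biological replicates, and the p-values measure the spread between them.

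PU.1, encoded by Spi1, and SpiB are closely related ETS transcription factors of B cells that bind the same GGAA core, often together with IRF4 or IRF8. LPS is a bacterial product that B cells sense through TLR4 and the related RP105 (Cd180) and that drives division and differentiation into antibody-secreting cells. IL-4 adds class switching to IgG1 and IgE and raises CD23.

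Counts on genes totalled 73658850 and 37390801 in the PU.1 cKO libraries and 39234563 and 31238525 in the DKO libraries, within a range of 22757630 to 73658850 over the 8 libraries of the culture. Correlations between replicates were 0.992 to 0.994 over the log2 CPM of all genes tested. Ribosomal Rn45s took 3.26% of the counts in PU.1 cKO replicate 2 and 0.49% to 1.79% in the other 7 libraries, and Lars2, Rn18s, Rn7sk and Rmrp were high there too, Lars2 at 3462 CPM against 862 CPM in replicate 1. Leaving that library out lowered the main count of genes given below from 1009 to 751. The 10 B cell markers summed to 9090 and 8290 CPM in PU.1 cKO and 9730 and 10300 in DKO. Among the 16 T cell markers, Cd3d, Cd3e, Cd3g, Trbc1, Trbc2 and Cd4 lay between 0 and 0.159 CPM in all 4 libraries, and 10 were under 0.5 CPM in all 4. The T cell sum was nevertheless 151 and 162 CPM in PU.1 cKO and 241 and 228 in DKO, carried by Thy1, Lck and Cd2. Sums for NK cells (4.49 and 8.07 against 13.8 and 15.5 CPM, with Ncr1 and Klrd1 at 0), macrophages (12.4 and 5.38 against 16.1 and 16.3 CPM, with C1qa, C1qb and C1qc at 0), neutrophils (0.148 to 0.299 CPM in the 4 libraries) and erythroid cells (0.797 to 1.3 CPM) were small. Plasmacytoid dendritic cell markers, several of which B cells express, summed to 1410 to 1660 CPM with Siglech at 0. Conventional dendritic cell markers summed to 45.4 and 41.7 CPM in PU.1 cKO and to 30.9 and 30.3 CPM in DKO. Stromal markers lay between 34.3 and 51.6 CPM. The part of other cell types in the differences below was not tested, and in bulk RNA fewer cells of a type and less RNA per cell cannot be told apart.

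The targeted genes followed the labels as far as counts per gene can show it. Spib (Entrez 272382, chr7:44525995-44532087, GRCm38) was measured at 229 and 178 CPM in PU.1 cKO and at 15 and 11.9 in DKO, a log2 fold change of -3.91 ± 0.20 (SE). SpiB KO cells held 18.1 and 14.3 CPM and control cells 276 and 211 CPM, so the 4 libraries with the null allele lay below the 4 without it. Spi1 (Entrez 20375, chr2:91082374-91115759) read 72.0 and 60.7 CPM in control, 74.9 and 81.3 in SpiB KO, 44.2 and 41.2 in PU.1 cKO and 63.9 and 58.8 in DKO. Only an exon of Spi1 is deleted and the counts cover the whole gene, so the remaining reads do not measure intact transcript. From read coverage, the paper reports complete loss of this exon after CD40L + IL-4 and a similarly efficient deletion after LPS + IL-4. In whole-gene counts of Spi1, the difference between DKO and PU.1 cKO was 0.52 ± 0.10 on the log2 scale (adjusted p = 0.00944), which is under the fold asked for. Mybpc3, a cardiac myosin-binding protein gene that starts directly after Spi1, was at 323 and 291 CPM in PU.1 cKO and 347 and 297 in DKO, but at 0.173 to 0.901 CPM in the 4 libraries without PU.1 deletion. The 2 groups without PU.1 did not separate on it (0.07 ± 0.10, adjusted p = 0.642).

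**Figure D1:**
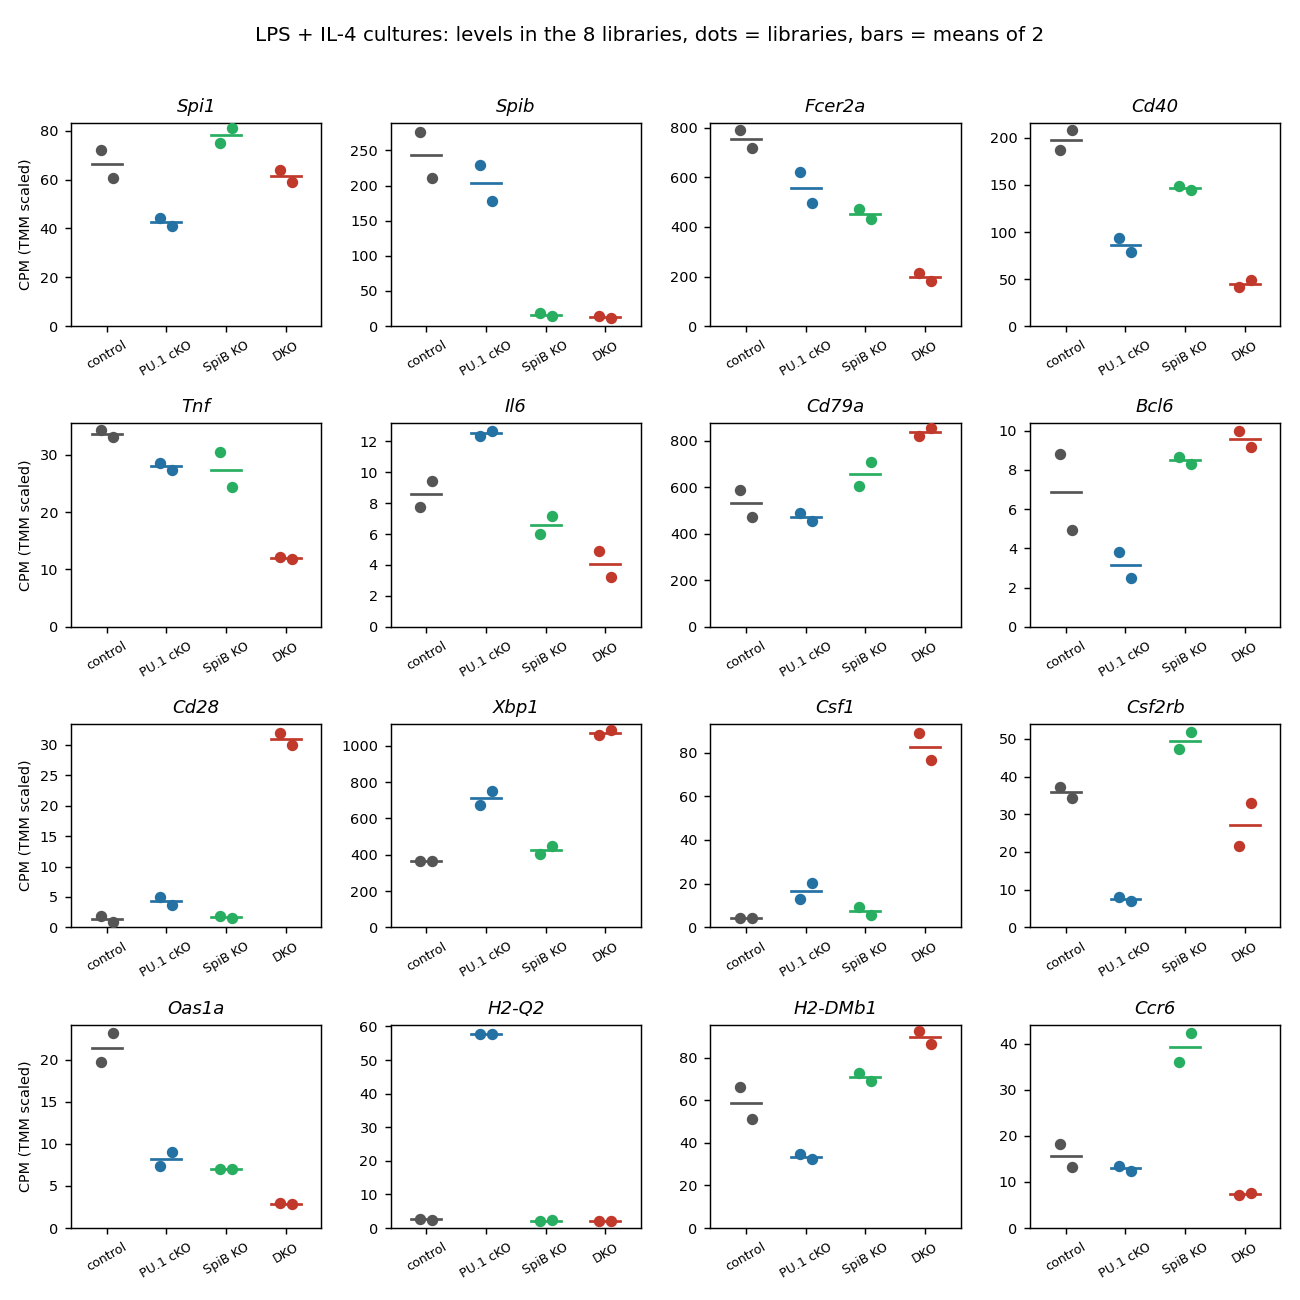
CPM (counts scaled to library size by TMM) of 16 genes in the 8 LPS + IL-4 libraries, with 1 dot per library and a bar at the mean of the 2 libraries of a genotype; each panel starts at 0. Spib is low in both groups with the null allele, Cd28 is at 31.9 and 30 CPM in DKO and at or under 5.03 CPM elsewhere, and H2-Q2 is at 57.8 CPM in both PU.1 cKO libraries and at or under 2.81 CPM elsewhere.

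Loss of SpiB in PU.1-deficient LPS-stimulated cells was accompanied by more genes rising than falling. Genes of the plasma cell programme such as Cd28, Xbp1 and Ell2, BCR components such as Cd79a and the transcription factors Bcl6 and Klf2 were higher in DKO. Of the 44 interferon-stimulated genes tested 16 were lower, as were the low-affinity IgE receptor gene Fcer2a, Cd40 and the cytokines Tnf, Lta, Ltb and Il6. Tnf, Lta and Ltb are neighbours in an interval of chromosome 17 where the PU.1 cKO libraries stood apart. The part of that interval in their values was not tested. A gene was called when its Benjamini-Hochberg adjusted p in edgeR's quasi-likelihood test was under 0.15, its fold change over 1.5 and its deposited log2 RPKM, averaged over the 8 libraries, above 0. Of the 12445 genes tested, 1009 were called (8.11%), 712 higher in DKO (5.72%) and 297 lower (2.39%), with a median size of 0.79 on the log2 scale. More than 4-fold changes were found for 19 genes that rose and 27 that fell, and 13 of the 27 are genes at which the PU.1 cKO libraries stood apart from all others, described below. The DKO and PU.1 cKO libraries did not overlap for 7982 of the genes tested (64.1%) and for 1007 of the 1009 called. The median log2 fold change of all genes tested was 0.01. With quantile normalization in limma voom, 573 genes were higher and 393 lower, a share of 59.3% higher in place of 70.6%. A block for the replicate number gave 1047 genes (8.41%), of which 1003 were among the 1009.

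In other comparisons with the same thresholds, SpiB KO against control in this culture gave 285 genes (2.29%), 202 higher (1.62%) and 83 lower (0.667%). DKO against PU.1 cKO gave 383 of 12721 genes after CD40L + IL-4 (3.01%), 179 higher (1.41%) and 204 lower (1.6%), and 901 of 12500 genes in naive cells (7.21%). For naive cells the paper reports that the floxed Spi1 exon was partly retained in DKO and fully deleted in PU.1 cKO. The naive contrast therefore also differs in PU.1 itself. The CD40L + IL-4 libraries were shallower, between 9598674 and 11434235 counts in all but 1 of the 8. Rn45s took 6.64% of the counts in DKO replicate 1 of that culture and 0.416% to 1.86% in its other libraries.

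**Figure D2:**
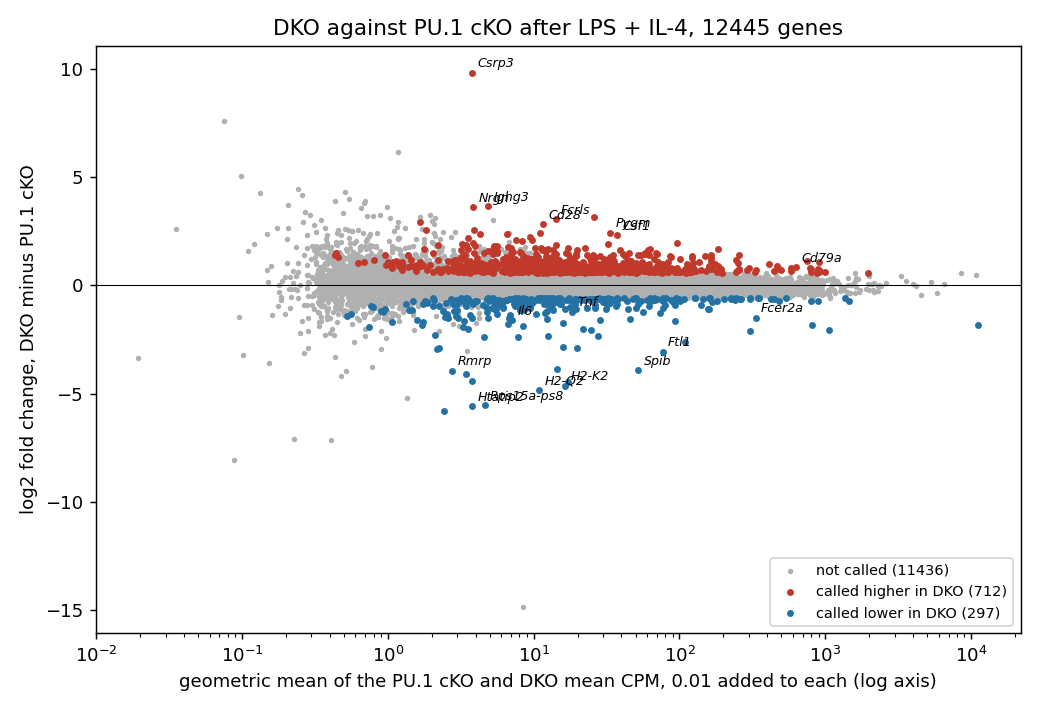
Log2 fold change of DKO against PU.1 cKO (vertical axis) against the geometric mean CPM of the 2 genotypes (log axis) for the 12445 genes tested. Red dots are the 712 genes called higher in DKO, blue dots the 297 called lower and grey dots the rest; Csrp3 and the H2 genes lie at the extremes.

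Outside the neighbourhood of Spib, the largest rises were in genes with low levels in PU.1 cKO. Cd28 (Entrez 12487, chr1:60746388-60773359), a costimulatory receptor of T cells that long-lived plasma cells also carry, was at 5.03 and 3.66 CPM in PU.1 cKO and at 31.9 and 30 in DKO, with 1.94 and 0.846 CPM in control and 1.88 and 1.60 CPM in SpiB KO. The DKO libraries were thus above all others, and the difference from PU.1 cKO was 2.82 ± 0.27 (adjusted p = 0.000443). Nrgn, which encodes the calmodulin-binding neurogranin, stood at 0.985 and 1.22 CPM in PU.1 cKO and at 12.3 and 14.3 in DKO (3.61 ± 0.25). Fcrls, a scavenger receptor of the Fc receptor-like family, went from 5.10 and 4.72 CPM to 42.6 and 38.8 CPM (3.05 ± 0.26). For Pygm, the muscle form of glycogen phosphorylase, 15 and 14 CPM in PU.1 cKO compared with 85.6 and 70.1 CPM in DKO (2.42 ± 0.13). Each of these genes had separate groups, and each was also above control in both DKO libraries. Crisp3, a secreted cysteine-rich protein gene (2.38 ± 0.43), Wdfy1, an adaptor in Toll-like receptor signalling (2.43 ± 0.40), and Fcer1g, the signalling chain shared by Fc receptors (2.56 ± 0.28), were also among the 10 largest rises, with Ighg3 below. Among the largest falls, Rmrp, an RNA of ribosomal RNA processing, moved with PU.1 cKO replicate 2 (1.94 and 19.2 CPM in PU.1 cKO against 0.149 and 1.27 CPM in DKO) and was not called without that library.

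The interferon-stimulated genes, which encode antiviral effectors and their regulators downstream of the interferon receptors, held many members that were lower in DKO. Of 44 tested, 16 were called lower and 0 higher (36.4%, against 8.11% of all genes tested). A log2 fold change below 0 was found for 38, and the median was -0.56. The 16 included Oas1a, Oas3, Oasl1 and Oasl2 of the oligoadenylate synthetase family, the guanylate-binding protein genes Gbp2, Gbp3, Gbp5 and Gbp7, the RNA sensor Ifih1 and the regulator Irf7. Rtp4, an interferon-induced transmembrane protein gene, was measured at 19.2 and 17.8 CPM in control, 6.70 and 6.26 in SpiB KO, 3.97 and 4.77 in PU.1 cKO and 1.57 and 1.49 in DKO. Oas1a (Entrez 246730, chr5:120896256-120907544) showed the same order at the extremes, with 19.7 and 23.2 CPM in control, 7.0 and 7.06 in SpiB KO, 7.33 and 8.99 in PU.1 cKO and 2.94 and 2.80 in DKO. For both genes DKO was the lowest group and control the highest, without overlap. The differences between DKO and PU.1 cKO were -1.5 ± 0.17 (adjusted p = 0.000978) for Rtp4 and -1.5 ± 0.16 (adjusted p = 0.000813) for Oas1a.

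Other members moved by similar amounts. Ifih1 was at 67.6 and 63.4 CPM in PU.1 cKO and 28.2 and 32.7 in DKO (-1.11 ± 0.10). The master regulator gene Irf7 was at 7.41 and 10.2 CPM against 3.91 and 4.58 CPM (-1.05 ± 0.17). Gbp2, a large interferon-inducible GTPase, was at 238 and 231 CPM against 120 and 96.5 CPM (-1.11 ± 0.13). Isg15, a ubiquitin-like modifier, showed one of the smaller called changes (-0.63 ± 0.12). In cells that keep PU.1, SpiB KO against control, 18 members were called lower and 0 higher, with a median of -0.64. After CD40L + IL-4 the same contrast as here called 3 lower and 1 higher (median -0.13).

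Promoters of these genes were searched for the letters of the interferon response element, GAAA, any 2 bases and GAAA again, on either strand, in windows from 250 bases before to 50 bases after the RefSeq start (GRCm38.p6). Of the 12445 genes tested, 9375 had such a window, and 356 windows (3.8%) held the letters. They were held by 22 of 210 genes called lower (10.5%), 16 of 503 called higher (3.18%), 10 of 13 interferon-stimulated genes called lower (76.9%) and 8 of 20 not called (40.0%). The 10 interferon-stimulated genes are among the 22, so these 2 shares are not separate results. The ETS letters GAGGAAGT, a high-affinity form of the PU.1 and SpiB site, were found in 369 windows of all genes (3.94%), in 13 of the 210 (6.19%), 25 of the 503 (4.97%) and in 0 of the 13. A match describes letters in the window and not binding. The 250 bases before the start, 5′ to 3′ on the strand of the gene with the interferon response element letters in capitals, are shown for 3 of the interferon-stimulated genes that fell and for the chemokine gene Cxcl10, to show how close to the start the element lies. In Oas1a (chr5:120907526-120907775, minus strand) a pair of overlapping matches begins 20 bases before the start, in Oas3 (chr5:120777660-120777909, minus strand) the match begins 75 bases before it, in Ifit1 (chr19:34640639-34640888, plus strand) the first of 2 matches begins 104 bases before it and both are on the opposite strand, and in Cxcl10 (chr5:92348890-92349139, minus strand) the match begins 213 bases before it. The Oas1a window belongs to a RefSeq start inside the gene span given above, so its matches lie at the edge of that span.
Oas1a: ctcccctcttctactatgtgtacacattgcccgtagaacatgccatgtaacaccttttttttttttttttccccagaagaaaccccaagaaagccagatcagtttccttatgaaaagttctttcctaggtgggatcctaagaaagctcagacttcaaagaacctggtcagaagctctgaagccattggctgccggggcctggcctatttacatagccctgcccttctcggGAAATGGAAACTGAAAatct
Oas3: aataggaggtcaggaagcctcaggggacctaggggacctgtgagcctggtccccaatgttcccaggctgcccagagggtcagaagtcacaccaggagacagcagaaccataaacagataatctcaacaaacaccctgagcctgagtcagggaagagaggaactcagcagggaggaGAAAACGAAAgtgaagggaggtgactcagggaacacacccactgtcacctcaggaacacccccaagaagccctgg
Ifit1: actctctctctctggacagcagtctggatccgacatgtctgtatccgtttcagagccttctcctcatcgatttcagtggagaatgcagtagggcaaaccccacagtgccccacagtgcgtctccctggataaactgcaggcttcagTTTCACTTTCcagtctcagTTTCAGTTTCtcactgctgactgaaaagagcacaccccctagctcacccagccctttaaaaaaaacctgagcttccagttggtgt
Cxcl10: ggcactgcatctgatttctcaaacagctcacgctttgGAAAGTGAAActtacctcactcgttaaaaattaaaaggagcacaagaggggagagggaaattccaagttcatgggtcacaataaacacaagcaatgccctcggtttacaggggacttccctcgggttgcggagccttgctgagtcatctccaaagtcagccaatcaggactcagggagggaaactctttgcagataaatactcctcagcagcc

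Cytokine genes, the products through which activated B cells act on other cells, changed in both directions. Of 15 chemokine and cytokine genes tested, 3 were called higher and 6 lower, with a median of -0.52. Il6, the plasma cell growth factor gene, was measured at 7.74 and 9.44 CPM in control, 5.98 and 7.19 in SpiB KO, 12.3 and 12.7 in PU.1 cKO and 4.93 and 3.24 in DKO. The DKO was the lowest group and the PU.1 cKO the highest (-1.61 ± 0.21, adjusted p = 0.0018). Cxcl10, an interferon-inducible chemokine gene that attracts activated T cells, fell from 2.74 and 2.69 CPM to 0.946 and 0.859 CPM (-1.58 ± 0.21). Ccl22, which attracts CCR4-bearing T cells, was at 461 and 556 CPM in control, 85.5 and 83.9 in SpiB KO, 90.2 and 65.8 in PU.1 cKO and 14.3 and 39.2 in DKO. Both single knockouts lay below control and DKO below both (-1.55 ± 0.36 against PU.1 cKO, adjusted p = 0.0176). Ccl5, Ccl3 and Ebi3, a subunit of IL-27 and IL-35, were also called lower. The opposite was seen for Csf1, the macrophage growth factor gene (Entrez 12977, chr3:107741048-107760469), with 13.2 and 20.1 CPM in PU.1 cKO, 88.9 and 76.5 in DKO and at most 9.49 CPM in control and SpiB KO (2.32 ± 0.24, adjusted p = 0.000597). Il10, the regulatory cytokine gene, rose from 6.80 and 6.80 CPM to 14 and 19.6 CPM (1.30 ± 0.17), and Il4i1, a secreted amino acid oxidase gene induced by IL-4 that lies 0.304 Mb from Spib, rose by 1.12 ± 0.21. The part of DNA linked to the Spib null allele in the value of Il4i1 was not tested.

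The TNF and TNF receptor genes had 5 of 19 members called lower and 2 higher (median -0.15). The ligand gene Tnf was measured at 28.6 and 27.3 CPM in PU.1 cKO and 12.1 and 11.8 in DKO, with 24.3 to 34.4 CPM in the 4 control and SpiB KO libraries (-1.23 ± 0.12, adjusted p = 0.000496). Lta, the lymphotoxin alpha gene, was at 24.7 and 23 CPM against 11.1 and 11.3 CPM (-1.09 ± 0.14). For Ltb, which anchors lymphotoxin in the membrane, PU.1 cKO was the group that stood apart, at 76.2 and 69.3 CPM, whereas DKO had 33.5 and 36.4 CPM, control 37.4 and 30.1 CPM and SpiB KO 34.2 and 34.6 CPM (-1.06 ± 0.12). These 3 genes lie next to each other in the interval of chromosome 17 that is described below for the PU.1 cKO libraries, and the part of that interval in their values was not tested. Tnfsf9, the ligand of 4-1BB, was called lower (-0.85 ± 0.24), and the receptor genes Tnfrsf26 (0.71 ± 0.12) and Tnfrsf21 (0.61 ± 0.17) were called higher, the latter not without PU.1 cKO replicate 1 or DKO replicate 2. Tnfrsf13c, the receptor for the survival factor BAFF, was at 332 and 299 CPM in PU.1 cKO and 206 and 231 in DKO (-0.53 ± 0.09, adjusted p = 0.00596), under the fold asked for.

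Receptors for signals from T cells and microbes were affected unevenly. Fcer2a (Entrez 14128, chr8:3680280-3694174), which encodes CD23 and gave the transgene its regulatory sequences, was measured at 790 and 718 CPM in control, 472 and 431 in SpiB KO, 620 and 495 in PU.1 cKO and 215 and 182 in DKO. The DKO was the lowest group and the difference from PU.1 cKO was -1.49 ± 0.13 (adjusted p = 0.000197). Cd40 (Entrez 21939, chr2:165055614-165071654), the receptor for T cell help, gave 187 and 208, 149 and 145, 93.7 and 79.0, and 41.1 and 48.5 CPM in the same order of groups (-0.95 ± 0.11, adjusted p = 0.00127). Among 25 genes of microbial sensing, 2 were called lower and 0 higher, with a median of -0.05. That share (8.0%) is near the 8.11% called over all genes tested. Tlr4, the receptor of LPS itself, was at 22.3 and 20.7 CPM in PU.1 cKO and 14 and 14.4 in DKO (-0.60 ± 0.12, adjusted p = 0.0113), a change at the fold threshold that was not called without PU.1 cKO replicate 1 or DKO replicate 1. Nod2, a cytosolic sensor of bacterial cell wall, fell by 0.71 ± 0.22 on the log2 scale (adjusted p = 0.0456) and was not called without either of the same libraries. Tlr9, which senses bacterial DNA, was at 44.9 and 33.7 CPM against 27.8 and 32.8 CPM (-0.38 ± 0.17, adjusted p = 0.133) and was not called.

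Some genes of BCR signalling were higher in DKO under this stimulus. Of 40 tested, 6 were called higher and 0 lower, 34 were not called, 9 had a log2 fold change below 0, and the median was 0.25. Of the 6, Cd79a lies 19.6 Mb and Cd22 13.6 Mb from Spib, and with genes within 20 Mb of Spib left out 4 were called. Cd79a (Entrez 12518, chr7:24897497-24901858), a signalling chain of the BCR, was measured at 589 and 474 CPM in control, 605 and 711 in SpiB KO, 490 and 455 in PU.1 cKO and 820 and 856 in DKO (0.83 ± 0.12, adjusted p = 0.00302). The partner Cd79b rose from 759 and 703 CPM to 1067 and 1148 CPM (0.60 ± 0.12), close to the fold threshold and not called without PU.1 cKO replicate 2 or DKO replicate 2. The other 4 were Blk, a Src family kinase gene (0.85 ± 0.13), Dok3, an inhibitory adaptor gene (1.47 ± 0.28), Nfatc1, a calcium-regulated transcription factor gene (0.74 ± 0.12), and Cd22, an inhibitory lectin of the BCR (0.70 ± 0.12). Values for the adaptor gene Blnk (-0.09 ± 0.08) and the kinase gene Btk (-0.15 ± 0.11) did not pass the test. After CD40L + IL-4 the group had 2 members called higher and 4 lower (median -0.22).

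The B cell transcription factor genes had 6 of 30 members called higher and 0 lower (median 0.13). Bcl6 (Entrez 12053, chr16:23965050-23988866), the repressor that drives the germinal centre programme, was measured at 8.82 and 4.91 CPM in control, 8.68 and 8.30 in SpiB KO, 3.80 and 2.47 in PU.1 cKO and 10.0 and 9.19 in DKO (1.59 ± 0.28, adjusted p = 0.00611). PU.1 cKO was the lowest group and DKO the highest, and the control libraries lay on either side of SpiB KO. Klf2 (Entrez 16598, chr8:72319062-72321654) and Klf3, Krüppel-like factors of resting and recirculating lymphocytes, went from 88.8 and 67.4 to 191 and 185 CPM (1.26 ± 0.24) and from 24.7 and 23.6 to 50.4 and 44.5 CPM (0.97 ± 0.11). Foxo1, a factor of resting B cells and recombination, was called higher at 0.69 ± 0.09, with Mef2b, a partner of Bcl6 in the germinal centre (1.03 ± 0.25), and Myb (0.72 ± 0.27). The identity factor Pax5 (0.05 ± 0.13), Bach2, which delays plasma cell differentiation (0.03 ± 0.10), Irf4 (-0.01 ± 0.10) and Batf (-0.19 ± 0.09) did not pass. Among 18 ETS family genes, Ets1, which restrains plasma cell differentiation, was the 1 called higher, at 357 and 384 CPM against 659 and 587 CPM (0.75 ± 0.13, adjusted p = 0.0056), and Spib the 1 called lower (median 0.20). That is 11.1% of the family, against 8.11% of all genes tested.

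A share of the plasma cell genes rose although the sort had removed cells with surface CD138. Of 24 genes of this programme tested, 8 were called higher and 0 lower (33.3%, against 8.11% of all genes tested). A log2 fold change below 0 was found for 5, and the median was 0.32. Xbp1, the transcription factor of the secretory apparatus, was measured at 365 and 363 CPM in control, 403 and 448 in SpiB KO, 674 and 750 in PU.1 cKO and 1059 and 1085 in DKO. The 2 DKO libraries were the highest and the difference from PU.1 cKO was 0.59 ± 0.09 (adjusted p = 0.00362), at the fold threshold, below which it fell without PU.1 cKO replicate 1 or DKO replicate 2. Ell2, an elongation factor needed for secreted immunoglobulin mRNA, was at 64.8 and 67.0, 98.3 and 94.4, 232 and 227, and 439 and 356 CPM in the same order of groups (0.79 ± 0.10). Atp1b1, a sodium pump subunit gene, went from 54.3 and 54.5 CPM in PU.1 cKO to 138 and 136 CPM in DKO, with 3.63 to 8.04 CPM in control and SpiB KO (1.33 ± 0.10). Igj, the joining chain of polymeric antibody, rose by 1.49 ± 0.22, and Derl3, Cd93 and Bhlha15 were also called, together with Cd28 above. Prdm1, which encodes the plasma cell regulator Blimp-1, was at 44.2 and 47.8 CPM against 64.4 and 58.1 CPM (0.41 ± 0.11, adjusted p = 0.0321) and stayed under the fold asked for. Sdc1, the gene for CD138, read 7.91 and 7.82 CPM against 8.26 and 7.60 CPM. The summed plasma cell markers were 1530 and 1740 CPM in PU.1 cKO and 2270 and 2280 in DKO. In a fit of all 24 libraries 5 members of the programme were called in place of 8, and after CD40L + IL-4 the same contrast called 0 in either direction.

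Genes of the secretory apparatus had few calls. Of 66 endoplasmic reticulum genes that fold and export proteins, 3 were called higher (Kdelr1, a retrieval receptor gene 1.34 Mb from Spib, 0.79 ± 0.08; Wfs1, 0.72 ± 0.17; Sec24d, a coat protein gene, 0.62 ± 0.13) and 0 lower, with a median of 0.08. That share (4.55%) is under the 8.11% called over all genes tested. Of 12 immunoglobulin constant region genes, 3 were called higher and 0 lower (median 0.43). Ighg3, the IgG3 heavy chain gene (chr12:113357442-113361232), was measured at 8.17 and 3.83 CPM in control, 16 and 18.5 in SpiB KO, 1.47 and 1.25 in PU.1 cKO and 13.9 and 20.8 in DKO (3.65 ± 0.35, adjusted p = 0.000438). Groups with the Spib null allele were thus above those without it. Ighd was called at 1.39 ± 0.32 and the light chain gene Iglc2 at 0.61 ± 0.16. Ighg1, the isotype that IL-4 induces, was at 288 and 294 CPM in PU.1 cKO and 332 and 288 in DKO, ranges that overlapped (0.09 ± 0.11, adjusted p = 0.582). Among 27 genes of the class switch machinery, H2afx, a histone gene of the DNA damage response, was called higher (0.88 ± 0.16) and Atm, its kinase, lower (-0.61 ± 0.11), with a median of -0.19. For this group the share called (7.41%) is near the 8.11% over all genes tested.

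Some cytokine receptor genes and feedback inhibitors of cytokine signals rose. Of 38 tested, 10 were called higher and 2 lower, 9 had a log2 fold change below 0 (median 0.17), against 6 higher in a fit of all 24 libraries. Csf2rb, the signalling chain of the receptors for IL-3, IL-5 and GM-CSF, was measured at 37.1 and 34.4 CPM in control, 47.3 and 51.7 in SpiB KO, 8.11 and 6.91 in PU.1 cKO and 21.5 and 32.9 in DKO (1.85 ± 0.19, adjusted p = 0.000581). As for Bcl6, PU.1 cKO was the lowest group. The inhibitors Socs1 (1.0 ± 0.13), Socs3 (1.0 ± 0.15), Socs2 (0.74 ± 0.18) and Cish (0.59 ± 0.10), all induced by cytokine signals through STAT proteins, were called higher, as were Il9r (1.16 ± 0.21), Crlf2 (0.91 ± 0.15), Tgfbr2, Il10rb and Il6ra. Il12rb1 (-0.62 ± 0.11) was among the 2 called lower. Il4ra, the receptor of the IL-4 in the culture, was at 1639 and 1598 CPM in PU.1 cKO and 2577 and 2192 in DKO (0.56 ± 0.11, adjusted p = 0.00887), just under the fold asked for.

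Among 35 genes of homing and adhesion, 8 were called higher and 2 lower (median 0.10). S1pr1 (chr3:115710433-115715055), which guides lymphocytes out of lymphoid organs and is a target of Klf2, was measured at 53.7 and 30.4 CPM in control, 81.2 and 97.3 in SpiB KO, 38 and 32.2 in PU.1 cKO and 93.5 and 97.8 in DKO (1.44 ± 0.22, adjusted p = 0.00361). The groups with the Spib null allele lay above the others. The integrin chain gene Itga6 (1.5 ± 0.21), the tetraspanin gene Cd9 (1.09 ± 0.20), Cxcr4 (0.99 ± 0.17), S1pr4 (0.80 ± 0.13), Itgb7 (0.62 ± 0.20), Ly6d and S1pr3 were the other 7 that rose. Icam1, a ligand of the integrin LFA-1, fell from 129 and 131 CPM to 77.5 and 79.3 CPM (-0.73 ± 0.08), and Ccr6 is described below. Of 30 Fc and inhibitory receptor genes, 5 rose and Fcer2a fell (median 0.41). They were Fcer1g, Lilrb4 (1.39 ± 0.32), Cd274, the gene for PD-L1 (0.76 ± 0.19), Fcrla (0.74 ± 0.27) and Faim3, the IgM receptor gene (1.36 ± 0.37), the last not called without PU.1 cKO replicate 2. Of the 20 genes of antigen presentation by MHC class II, 4 were called higher, H2-DMb1, H2-Ob, H2-Oa and H2-Eb2, and Cd40 lower (median 0.23).

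In the remaining groups the share called was near or under the 8.11% over all genes for glycolysis (8.33%), sterol and fatty acid synthesis (7.41%) and the cell cycle (4.76%), and higher for apoptosis (14.8%) and the lysosome (14.7%). Of 24 glycolysis genes 23 had a log2 fold change below 0 (median -0.33), but 2 were called lower, Ldha, the lactate dehydrogenase gene 2.31 Mb from Spib, at 1732 and 2006 CPM against 1054 and 1215 CPM (-0.72 ± 0.15, adjusted p = 0.0125), and the lactate transporter gene Slc16a1 (-0.61 ± 0.12). Of 42 cell cycle genes, 2 were called higher, E2f2 (1.01 ± 0.12) and the inhibitor Cdkn2c (0.59 ± 0.12), and the median was -0.09. Apoptosis genes numbered 27, with the pro-apoptotic Bmf (1.28 ± 0.32), Bcl2l11 (0.62 ± 0.09) and Trp53inp1 (1.30 ± 0.22) higher and the pro-apoptotic Pmaip1 (-0.65 ± 0.16) lower, around a median of 0.00. Lysosomal genes rose in 5 of 34 cases, among them the phosphatase gene Acp5 (1.72 ± 0.29), Ctsa (0.91 ± 0.15) and the membrane protein gene Laptm5 (0.74 ± 0.12), with 0 lower and a median of 0.20. In sterol and fatty acid synthesis 1 of 27 was higher, the exporter gene Abcg1 (1.08 ± 0.22), and 1 lower, the isomerase gene Idi1 (-0.65 ± 0.11), with a median of -0.19.

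**Figure D3:**
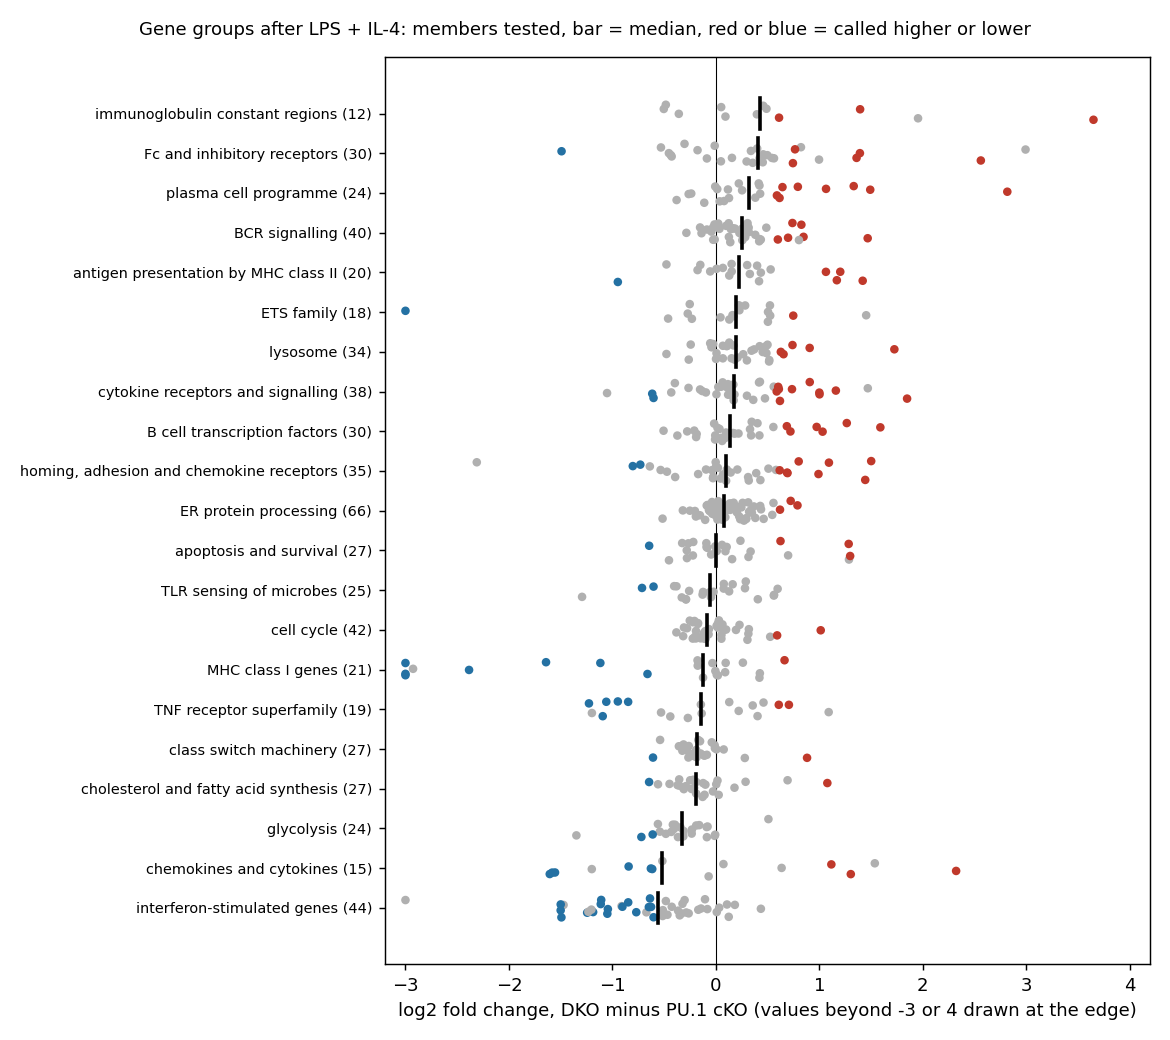
Log2 fold change of DKO against PU.1 cKO (horizontal axis) for the tested members of each gene group, with the number tested in brackets, 1 dot per gene, a bar at the median and called genes in red (higher) or blue (lower). The interferon-stimulated genes have their median at -0.56, with 16 blue and 0 red dots, and the plasma cell programme has 8 red and 0 blue dots.

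Genes near Spib on chromosome 7 were called more often than genes elsewhere. The Spib null allele, and any DNA inherited with it, was carried by DKO and not by PU.1 cKO. Within 5 Mb of Spib 24 of 106 tested genes were called (22.6%), 16 higher and 8 lower, between 5 and 20 Mb 28 of 186 (15.1%), further away on the chromosome 59 of 622 (9.49%) and on the other chromosomes 803 of 10308 (7.79%). Around Spi1, for which both groups were alike, the shares were 2 of 44 within 5 Mb (4.55%) and 7 of 94 between 5 and 20 Mb (7.45%). Spib and Spi1 themselves are not counted, and the other chromosomes leave out 2 and 7. Within 5 Mb, 7 called genes changed more than 4-fold, against 28 on the other chromosomes. Csrp3, a muscle LIM protein gene (Entrez 13009, chr7:48830398-48848051), was measured at 0.0674 and 0.194 CPM in PU.1 cKO and at 104 and 100.3 in DKO, with 35.7 and 29.3 CPM in SpiB KO and 0.0432 and 0.072 CPM in control. Ftl1, the ferritin light chain gene (chr7:45457944-45459886), was at 205 and 239 CPM in PU.1 cKO and 24.9 and 27.9 in DKO, with 201 and 202 CPM in control and 18.4 and 17 CPM in SpiB KO (-3.07 ± 0.11). For both genes the 4 libraries with the Spib null allele lay apart from the 4 without it. Mybpc2, the fast-muscle myosin-binding protein gene that ends directly before Spib (chr7:44501699-44524715), rose from 4.42 and 2.77 CPM to 18.1 and 13.3 CPM (2.10 ± 0.26), and Dhdh (2.22 ± 0.18), Dkkl1 (-2.28 ± 0.27), Gm15545 (2.57 ± 0.27) and the small nucleolar RNA gene Snord35b (2.94 ± 0.49) completed these 7. Somewhat further out, Htatip2, an oxidoreductase gene 5.23 Mb from Spib, fell from 26.9 and 25.2 CPM to 0.548 and 0.541 CPM (-5.57 ± 0.18) and Gas2 changed by -2.96 ± 0.26. With the genes within 20 Mb of Spib left out, 944 genes were called. The part of linked DNA in the differences near Spib was not tested.

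**Figure D4:**
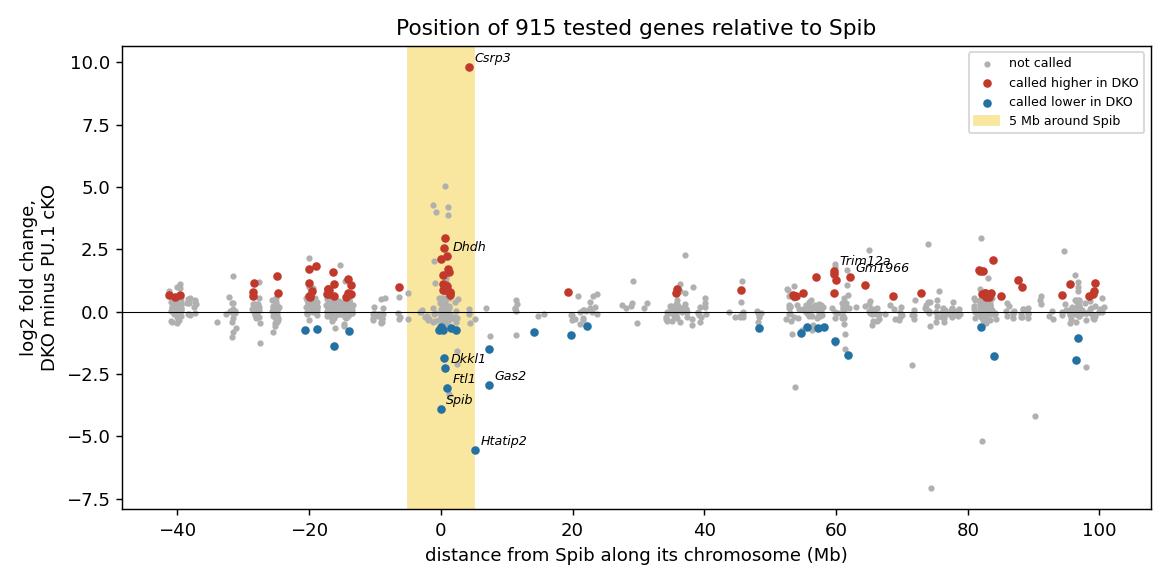
Log2 fold change of DKO against PU.1 cKO for 915 tested genes on the chromosome of Spib, plotted against their distance from Spib in Mb, with the 5 Mb on either side shaded. Red dots are genes called higher in DKO and blue dots genes called lower; 22.6% of the genes inside the shading were called.

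The PU.1 cKO libraries stood apart from all others at a small set of genes, which were chosen after their values were seen. At 23 genes both PU.1 cKO libraries lay more than 4-fold above (21) or below (2) each of the 6 other libraries of the culture. Of the 23, 11 are on chromosome 17 between 33.97 and 37.48 Mb, in the major histocompatibility complex. On chromosome 7, which also holds Spib, lie 4 more (Dock1, Gdpd3, Gprc5b and Tsku), all above the other libraries and not called. H2-Q2, a non-classical class I gene, was measured at 57.8 and 57.8 CPM in PU.1 cKO, 2.07 and 2.00 in DKO, 2.81 and 2.28 CPM in control and 2.05 and 2.31 CPM in SpiB KO (-4.82 ± 0.15, adjusted p = 1.74e-07). The class II gene H2-Ea-ps, listed as a pseudogene, read 0.0249 to 0.648 CPM in the 6 libraries other than PU.1 cKO, too few counts for a fold against the levels given above. The same contrast was large for H2-Q2 after CD40L + IL-4 (-6.59) and in naive cells (-7.32). Of the genes called lower here, 13 belong to this set, among them H2-K2, H2-Q10, H2-Q1 and H2-Bl.

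Of 21 MHC class I genes tested, 7 were called lower and 1 higher (median -0.12), and counts of such near-identical genes are uncertain. Beyond the set, 17 of 104 tested genes of the interval were called (16.3%), against 50 of 532 on the rest of chromosome 17 (9.4%). They include Tnf, Lta and Ltb, which fell, and H2-DMb1, H2-Oa, H2-Ob, H2-Eb2 and H2-K1, which rose. H2-DMb1, a chain of the peptide-loading factor of class II (chr17:34153191-34160229), was at 66.4 and 51.2 CPM in control, 72.8 and 69.0 in SpiB KO, 34.6 and 32.3 in PU.1 cKO and 92.6 and 86.4 in DKO (1.42 ± 0.12, adjusted p = 0.000189). H2-K1, the classical class I gene, was at 684 and 776 CPM against 1186 and 1126 CPM (0.66 ± 0.09). In both the PU.1 cKO libraries were the lowest of the culture. The part of the interval in the values of the genes within it was not tested.

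Whether PU.1 changes what SpiB loss does was asked by setting DKO minus PU.1 cKO beside SpiB KO minus control, which share no library. The SpiB KO had no Cre and the control did, so a Cre effect cannot be told apart from the rest of that second difference. Of the 1009 genes, 185 were also called in the same direction in SpiB KO (135 higher and 50 lower), which is 18.3% of the genes called here and 64.9% of the 285 called there, and 7 were called in the opposite direction. The sign was shared by 872 of the 1009 (86.4%). Genes higher in DKO had a median log2 fold change of 0.80 here and 0.38 there, and genes lower in DKO -0.76 here and -0.21 there. The genes were chosen on the first of these differences, so that the 2 medians do not stand on an equal footing.

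The difference between the 2 effects of SpiB loss passed an adjusted p of 0.15 for 184 genes (1.48%), and for 1284 once the replicate number entered as a block (10.3%). It passed for 111 of the 1009, and with the block for 415. The count without the block moved with single libraries, to 119 without control replicate 1, 789 without control replicate 2, 54 without PU.1 cKO replicate 2, 78 and 88 without DKO replicate 1 and 2, and 58 and 88 without SpiB KO replicate 1 and 2. For Cd28 the value was 0.48 in SpiB KO minus control (adjusted p = 0.602) and 2.82 in DKO minus PU.1 cKO, a difference of 2.34 ± 0.44 (adjusted p = 0.0631). Csf2rb (difference 1.38 ± 0.25, adjusted p = 0.0594), Tnf (-0.94 ± 0.17, adjusted p = 0.057) and Fcer2a (-0.75 ± 0.18, adjusted p = 0.136) also passed. Values for single genes here are from the fit without the block. Lef1, a transcription factor gene of the Wnt pathway, was lower with SpiB loss in the presence of PU.1 (19.4 and 21 CPM in control, 13.5 and 13.9 CPM in SpiB KO) and higher in its absence (10.5 and 8.21 CPM in PU.1 cKO, 20.2 and 21.7 in DKO), a difference of 1.72 ± 0.19 (adjusted p = 0.00622). Ccr6 (chr17:8236041-8258519), the chemokine receptor for CCL20, had the opposite pattern, from 18.2 and 13.3 CPM to 36.0 and 42.4 CPM with PU.1 and from 13.4 and 12.5 CPM to 7.22 and 7.63 CPM without it (-2.13 ± 0.23, adjusted p = 0.00414). For both genes all 4 groups stood apart except PU.1 cKO and control in Ccr6, and DKO and control in Lef1. By contrast the interferon-stimulated genes Oas1a (0.11 ± 0.22, adjusted p = 0.901) and Rtp4 (0.01 ± 0.28) did not pass.

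The same contrast after CD40L + IL-4, a mimic of T cell help, shares no library with this one and differed in many genes. The labels do not say that the 2 cultures were made together, and a difference of preparation was not tested. The stage difference, tested in a fit of all 24 libraries, passed an adjusted p of 0.15 for 1458 of 13684 genes (10.7%), or 3579 with a block for the replicate number, and for 403 of the 1009. Single libraries moved the count to 717 without PU.1 cKO replicate 1 and 426 without DKO replicate 2 of CD40L + IL-4, and to 515 without PU.1 cKO replicate 2 and 544 and 961 without DKO replicate 1 and 2 of LPS + IL-4. Genes called in both cultures in the same direction numbered 100 (53 higher and 47 lower), 9.91% of those here and 26.6% of those there, and 30 were called in opposite directions. The sign was shared by 578 of 1001 genes (57.7%). With the contrast in naive cells, which also differs in Spi1 deletion as given above, 174 were shared (17.2% of those here) and 26 were opposite. Klf2 (1.26 here, -0.91 ± 0.22 there) and Klf3 (0.97 here, -0.94 ± 0.20 there) rose in one culture and fell in the other, with differences of 2.13 (adjusted p = 0.00191) and 1.87 (adjusted p = 0.000605). Rdh12, a retinol dehydrogenase gene (1.18 here, -1.14 there), and Ccdc71l (0.64 here, -1.30 there) did the same. Ccl22 went the other way, lower after LPS + IL-4 and higher after CD40L + IL-4 (2.18 ± 0.54), with a difference of -3.77 (adjusted p = 0.00585).

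Several of the changes above were seen after LPS + IL-4 and not after CD40L + IL-4. Fcer2a changed by -1.49 here and by 0.06 ± 0.17 there, a difference of -1.59 (adjusted p = 0.00133). Cd40 changed by -0.95 here and 0.20 ± 0.19 there (difference -1.19, adjusted p = 0.00941), and Cd28 by 2.82 here and -0.18 ± 0.37 there (difference 2.95, adjusted p = 0.00266). Tnf, Lta and Ltb fell here and had values of 1.34, 1.36 and 0.59 there, of which Lta passed the adjusted p of that fit (0.119), with stage differences of -2.60, -2.50 and -1.69 that all passed. The chemokine and cytokine genes had a median of -0.52 here and 1.45 there, where 7 were called higher and 0 lower. Oas1a, in contrast, changed by -1.5 here and -1.47 there, and Csf2rb by 1.85 and 2.61. Just 16 genes were called in the same direction here, in SpiB KO against control and after CD40L + IL-4.

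**Figure D5:**
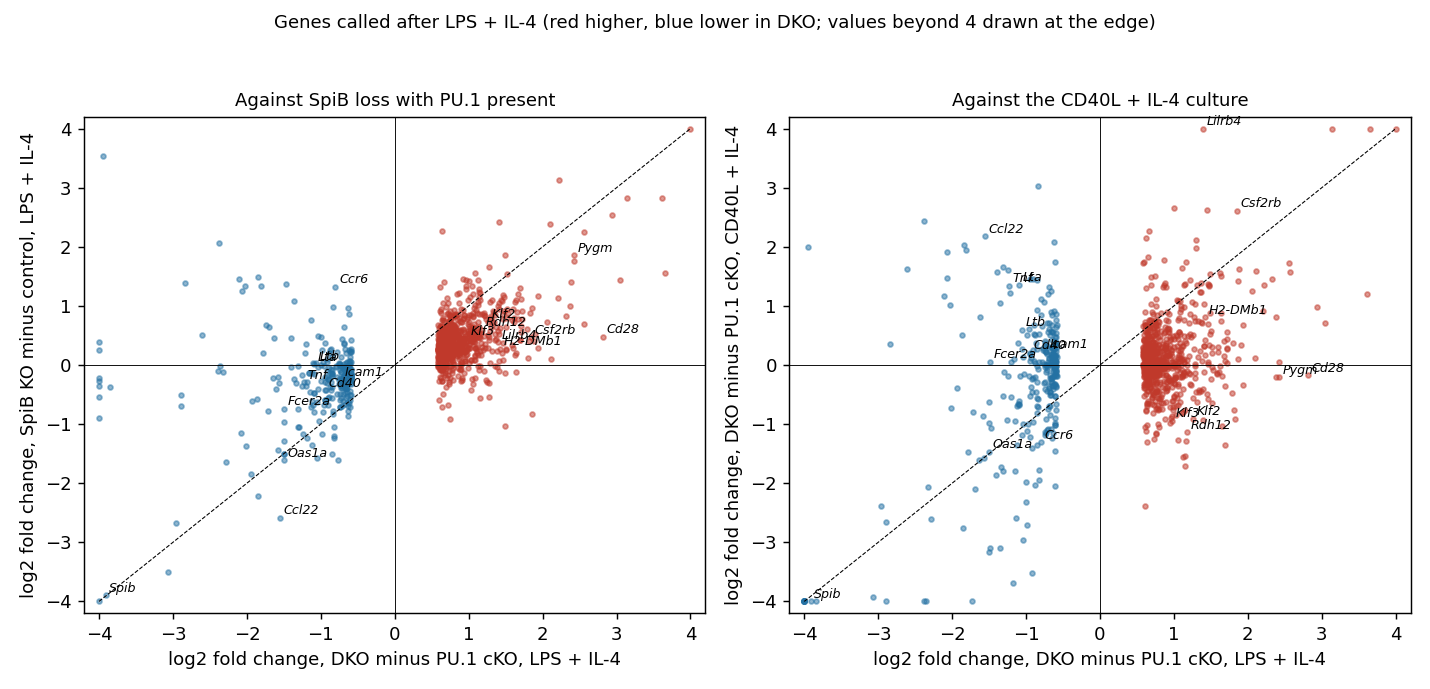
Log2 fold changes of the 1009 genes called here (horizontal axis in both panels) against SpiB KO minus control in the same culture (left, 1009 genes) and against DKO minus PU.1 cKO after CD40L + IL-4 (right, 1001 genes with a value), red for genes higher and blue for genes lower in DKO. The sign is shared by 86.4% of the genes on the left and 57.7% on the right.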

How the data were processed

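RNA of lymph node B cells was sequenced from TruSeq libraries. Reads were aligned by the authors with Subread to GRCm38/mm10, and those mapped to 1 place were counted with featureCounts over RefSeq exons. The deposited counts are raw whole numbers per gene. The deposited log2 RPKM values, filtered and quantile normalized by the authors with limma, served only as the expression threshold. Versions of these tools are not given in the sources used here. Titles gave the culture of a library, since the extraction protocol attached to all samples names only CD40L + IL-4.

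The 8 libraries of a stage were fitted together in edgeR 4.0.16 (R 4.3.3) with the quasi-likelihood test, TMM factors and full column totals as library sizes, after a minimum of 0.5 CPM in 2 libraries. Entries without a symbol (0.114% to 0.273% of counts in this culture) stayed in the totals and in the tests. Genes were called at a Benjamini-Hochberg adjusted p under 0.15 over all genes tested, a fold over 1.5 and a mean log2 RPKM above 0. SE is the log2 fold change over the square root of the F statistic. The interaction and stage tests used the adjusted p alone. The script was also tested on simulated counts, whose means and spread were taken from the real data. Positions and promoters are RefSeq GRCm38.p6, matched on Entrez ID for 12156 genes (97.7%). Gene groups were only counted.

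Libraries with the same replicate number deviated together from their genotype means (r of 0.409 to 0.573 over genes in all 6 pairs of genotypes). The main, interaction and stage tests nevertheless held no block for the number, so their p-values ignore this shared deviation. A fit with the block was run as an alternative. The sources do not say what the numbers stand for. Other alternatives were RLE and upper quartile factors, DESeq2 1.42.0, limma 3.58.1 with voom, other filters and thresholds, and leaving out single libraries or genes.

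Named were Spi1, Spib, Mybpc3 and Fcer2a, the 10 largest rises and 10 largest falls, up to 3 called genes in each direction per group, called genes over 4-fold within 5 Mb of Spib, the 4 clearest opposite calls between cultures, the 4 clearest interactions in each direction and group members that the study names. Unnamed gene models and pseudogenes were left out of the largest changes. Other genes were named after their values were seen, and a few that the rules named are not reported here. The members, lists and rules were chosen with earlier results of these data known.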

Additional observations from a re-analysis of the deposited data

Results flagged for a closer look

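Among the 122 named genes, 15 are those for which the change with SpiB loss differed, at an adjusted p under 0.05 in edgeR's quasi-likelihood test of the interaction, between cells without PU.1 and cells with PU.1, out of 58 among all genes tested. The values are the log2 fold change of DKO against PU.1 cKO minus that of SpiB KO against control. The difference was positive for 5 of them, Lef1 (1.72), Trim12a (1.43), Gm1966 (1.42), Lgals1 (1.28) and H2-DMb1 (1.14). It was negative for the chemokine receptor Ccr6 (-2.13), the lymphotoxin genes Lta (-1.11) and Ltb (-1.09), and Mybpc3 (-2.1). Mybpc3 was near the floor in the control and SpiB KO libraries and did not separate DKO from PU.1 cKO, as given above. The other 6, at which the PU.1 cKO libraries lay more than 4-fold above all others, were Gm8815 (-6.19), Rps15a-ps8 (-5.26), H2-K2 (-4.89), H2-Q2 (-4.61), H2-Q10 (-3.9) and H2-Q1 (-2.29). By smaller folds, the PU.1 cKO libraries were also the lowest of the culture at Gm1966 and H2-DMb1 and the highest at Ltb. Lta and Ltb, which encode partner subunits of lymphotoxin, had nearly equal differences. Lta, Ltb and H2-DMb1 lie in the chromosome 17 interval described above, and its part in their values was not tested. Gm1966 lies on chromosome 7, which also holds Spib and Dock1, Gdpd3, Gprc5b and Tsku, genes set apart in PU.1 cKO. The part of linked DNA in its value was not tested.

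Among the same 122 genes, 37 are those for which the change from PU.1 cKO to DKO differed, by the same kind of test over all 24 libraries, between the LPS + IL-4 and CD40L + IL-4 cultures, out of 542 among all genes. The values are the log2 fold change in LPS + IL-4 minus that in CD40L + IL-4. The differences were negative for the chemokine gene Ccl22 (-3.77), the inhibitory receptor gene Lilrb4 (-2.71), Tnf (-2.6), Lta (-2.5) and Ltb (-1.69). The low-affinity IgE receptor Fcer2a (-1.59), Cd40 (-1.19), Icam1 (-0.997), the IL-5 receptor subunit Il5ra (-0.915) and Il12rb1 (-0.798) also had negative differences. Positive differences were found for Cd28 (2.95), Fcrls (2.3), Ighd (2.28), S1pr1 (1.9), Itga6 (1.7) and the DNA sensor gene Tlr9 (1.22). Transcription factors with a positive difference were Klf2 (2.13), Klf3 (1.87), Mef2b (1.84), E2f2 (1.19), Ets1 (0.961) and Bach2 (0.872). Spib (1.56) and Spi1 (0.967), the targeted genes, were also among the 37. Of genes known from p53 responses and apoptosis, Trp53inp1 had a difference of 1.72 and Bcl2l11 of 1.36. The others were H2-Q1 (3.05), H2-Q10 (2.47), H2-Q2 (1.73), Pygm (2.59), Nrgn (2.39), Rdh12 (2.28), Mybpc2 (1.92), Ccdc71l (1.89), Abcg1 (1.52), H2afx (0.887) and Ctsa (0.884). Lta, Ltb, H2-Q1, H2-Q2 and H2-Q10 were in both sets. Groups of 2 libraries are too small for a search for outlying samples.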

How the results depend on the processing

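Of 1009 genes called between DKO and PU.1 cKO in the 8-library fit, counts ranged from 856 to 1047 under the alternatives to normalization, tool, low-count filter, threshold and samples, and from 751 to 1135 with each library left out in turn, but 1569 genes were called without the RPKM threshold. The replicate block called 1047, and every named gene that was called stayed called with that block. The count of 184 genes for the interaction of SpiB loss with PU.1 moved far more. It was 373 with DESeq2, 779 with no low-count filter, 84 in the fit of 24 libraries, 58 at an adjusted p under 0.05 and 1284 with the replicate block, and from 54 (without PU.1 cKO replicate 2) to 789 (without control replicate 2) with single libraries left out. For the difference between cultures the count of 1458 became 542 at an adjusted p under 0.05, 3579 with the replicate block, and from 426 (without DKO CD40L + IL-4 replicate 2) to 2129 (without DKO CD40L + IL-4 replicate 1). The cause was not tested in any of these cases.

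Recomputing the SpiB KO against control count and the gene-group counts was chosen after seeing the data. Of the first, 285 genes became 179 at an adjusted p under 0.05, 179 with all 24 libraries, and from 149 (without SpiB KO replicate 2) to 603 (without control replicate 1). With all 24 libraries, called genes of the plasma cell programme went from 8 to 5 and of cytokine receptors from 10 to 6, and without the RPKM threshold those within 5 Mb of Spib went from 24 to 37.

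Of the named genes 99 were called, and their 1667 alternative values held 1614 calls in the same direction, 53 losses of the call and 0 reversals of sign. Under every alternative 80 of these genes were called. The others lost their call without 1 library or more, among them: without PU.1 cKO replicate 1 Atm, Bcl2l11, Cdkn2c, H2-K1, Nod2, Pmaip1, Tlr4, Tnfrsf21 and Xbp1; without PU.1 cKO replicate 2 Cd79b, Faim3, Iglc2, Il12rb1, Rmrp and Slc16a1; without DKO replicate 1 Bcl2l11, Ccdc71l, Nod2, Rmrp, Sec24d, Slc16a1 and Tlr4; and without DKO replicate 2 Atm, Cd79b, Cdkn2c, Mef2b, Pmaip1, Tnfrsf21 and Xbp1. Of these, Atm, Cdkn2c, Rmrp, Slc16a1 and Tnfrsf21 also lost it with limma voom, Bcl2l11, Ccdc71l, Cd79b, Cdkn2c, Iglc2, Nod2, Sec24d, Tnfrsf21 and Xbp1 in the fit of 24 libraries, and Cd79b, Cdkn2c, Tnfrsf21 and Xbp1 with no low-count filter. With 2 libraries a group, leaving 1 out gives an arm of 1 library that is assumed to vary like the others, and genes under the low-count filter were not tested.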
